A study of Mus musculus with 9 samples.

Results

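Chemokines and their receptors were described in RNA from 9 mouse mammary tumours. The set held every gene whose symbol starts with Ccl, Cxcl, Ccr or Cxcr and a digit, together with Cx3cl1, Cx3cr1, Xcl1 and Xcr1. This gave 53 of the 18484 genes in the tables, with 34 ligands and 19 receptors. Cxcl11 was not analysed here.

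Chemokines are small secreted or membrane-bound proteins that direct the migration of leukocytes. They act through receptors coupled to inhibitory G proteins, and most receptors bind several ligands and most ligands several receptors. Ligands come from epithelium, fibroblasts, endothelium and leukocytes, whereas most of the receptors are carried by leukocytes. In the mammary gland and its tumours, Ccl2 and its receptor Ccr2 are known for drawing in monocytes, and Cxcl1, Cxcl2 and Cxcl5 for drawing in neutrophils through Cxcr2.

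The tumours arose in BlgCre-NeuKI mice on a mixed FVB/C57Bl6 background. An activated Neu allele, the rat form of Erbb2, stands in the endogenous Erbb2 locus behind a floxed stop cassette, and Cre driven by the beta-lactoglobulin promoter releases it in luminal mammary cells. All 9 tumours carried this genotype, and no normal gland or untreated control was part of the series. There were 5 high-amplified tumours, all adenocarcinomas of no special type or AC(NST), of which MS1213.1, MS1163.1 and MS1163.2 came from virgin mice. The mice of MS1155.3 and MS1218.2 were parous. All 3 not/low-amplified tumours arose in parous mice. Of these, MS1210.1 and MS1349.1 were adenosquamous carcinomas (ASQC) and MS1166.1 was an AC(NST). Amplification refers to the Erbb2/Neu locus. MS1156.1 was a mammary sarcoma from a parous mouse. Since both ASQC were parous and not/low-amplified and all virgin tumours were high-amplified, the 3 characteristics cannot be fully told apart. MS1163.1 and MS1163.2 carry the same mouse number, and nothing in the labels describes separate cultures or pools, so p-values measure the spread between these tumours.

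Each tumour gave 1 library, and between 12501225 and 23912429 reads were counted on genes. Erbb2 lay between 5284 and 105019 normalized counts in the high-amplified tumours and between 1532 and 2783 in the not/low-amplified tumours, without overlap. The summed level of 6 epithelial markers was 33366 to 136254 in the 8 epithelial tumours and 458 in the sarcoma. Leukocyte markers, 6 genes including Ptprc, summed to 25170 in MS1218.2, to 9623 to 13672 in 6 other epithelial tumours, to 2783 in MS1166.1 and to 2430 in the sarcoma. Between 28.4% and 79.6% of this sum was Lcp1, and the other 5 genes summed to 13738 in MS1218.2, 2209 to 7110 in the other epithelial tumours but MS1166.1, 1197 in MS1166.1 and 1740 in the sarcoma. Macrophage markers summed to 50723 in MS1218.2 against 3641 to 15146 in the other epithelial tumours. In all 9 tumours lymphocyte markers were low, with sums of at most 38.9 for B cells, at most 47.2 for NK cells and 32.1 to 230 for T cells. MS1218.2 is also the single tumour that the study's methods describe as falling short of its purity limit for tumour cells. The study's copy-number assays did not place MS1218.2 in 1 class, and the same held for MS1213.1. MS1163.2 and the sarcoma held skeletal muscle markers, with sums of 2022 and 9165 against at most 147 elsewhere. A lower level in these bulk samples can mean fewer cells of a type or less RNA per cell, and these cannot be told apart.

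Levels were given as normalized counts, that is, reads counted on a gene divided by a size factor for the library. A gene was tested where at least 3 of the 8 epithelial tumours held at least 10 reads, which left 39 of the 53 members. The other 14 were Ccl1, Ccl17, Ccl19, Ccl21a, Ccl24, Ccr10, Ccr1l1, Ccr3, Ccr4, Ccr8, Cxcl15, Cxcr1, Cxcr5 and Xcl1. Of these, Ccl1, Ccl19, Ccr10, Ccr1l1, Ccr8 and Cxcr1 had at most 3.86 normalized counts in any tumour, whereas Ccl24 and Cxcl15 were high in a single tumour each. The receptors Ccr3 and Ccr4, named here after their values were seen, reached 39.5 and 37.3, both in MS1349.1. A gene was called where edgeR's quasi-likelihood test, adjusted over 14007 genes by Benjamini-Hochberg, gave a value under 0.05 with a log2 fold change beyond 1.

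**Figure D1:**
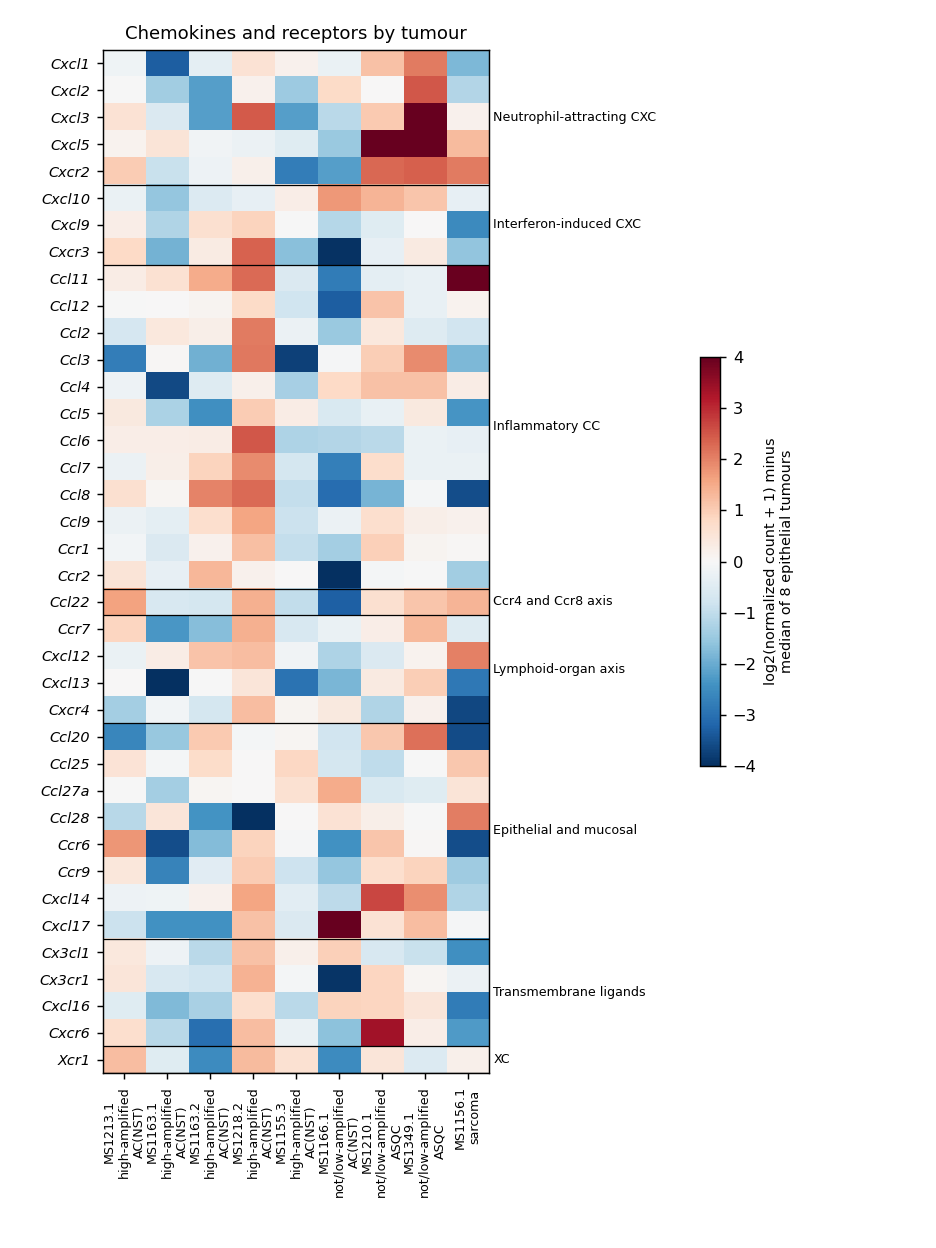
Heat map of 38 tested chemokine and receptor genes (rows, by family) in the 9 tumours (columns, with amplification status and histotype); the colour gives log2(normalized count + 1) minus the median of the 8 epithelial tumours. MS1218.2 has red cells in most CC ligands and receptors, MS1166.1 has blue ones there and a red cell at Cxcl17, and both ASQC have red cells at Cxcl5, Cxcl14 and Cxcr2.

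Between genes, levels were compared as normalized counts per kilobase of exon. The ligand Ccl8, a CC chemokine of the monocyte-attracting cluster, had the highest mean over the epithelial tumours at 1051 ± 1124 per kilobase (SD, n = 8). It was followed by Cxcl14, a ligand made by epithelium and stroma, at 709 ± 686, and by Ccl6, a mouse ligand of Ccr1, at 556 ± 670. The receptor Cxcr4, which binds Cxcl12, reached 442 ± 273. The SDs of Ccl8 and Ccl6 exceeded their means, so the order of these leading genes does not hold beyond the spread between tumours. Both membrane-anchored ligands were also among the 8 highest, Cxcl16 with 366 ± 227 and Cx3cl1 with 300 ± 173 per kilobase. Ccl9, another ligand of Ccr1, followed with 228 ± 138, and Cx3cr1, the receptor of Cx3cl1 on monocytes and macrophages, with 186 ± 131. The ranges of these 8 genes overlapped between neighbours in the order.

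Of the 8 families, the neutrophil-attracting CXC ligands and receptors had the largest median log2 fold change between the histotypes. Cxcl5, a ligand of Cxcr2, held 629 normalized counts in the ASQC MS1349.1 and 376 in the ASQC MS1210.1. In the 6 AC(NST) it lay between 7.14 and 31.5 with a median of 19.2. The groups did not overlap, and every AC(NST) was far below both ASQC. Cxcl5 was higher in ASQC with a log2 fold change of 4.68 ± 0.50 (SE), 25.7-fold, and an adjusted p of 0.0121 by edgeR's quasi-likelihood test. It was the 1 member called of 39, where 0.221% of all genes tested were called higher in ASQC and 0.236% in either direction. DESeq2 also called Cxcl5 and no other of the 45 members it gave an adjusted p, beside 3.44% of all genes. Without MS1349.1 the edgeR call was lost at a log2 fold change of 4.26 and an adjusted p of 0.104, and within the parous tumours it was lost at 5.15 and 0.246, with 1 of 13518 genes called.

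Cxcl5 lies with 4 related ligands in 147 kb of chromosome 5 (chr5:90759360-90905938, GRCm38), in the order Cxcl5, Cxcl3, Cxcl15, Cxcl1 and Cxcl2. All 4 tested genes of this cluster were highest in MS1349.1 among the epithelial tumours, as were 7 of all 39 tested members beside 8.16% of all genes. Cxcl1, a strong neutrophil attractant, held 302 normalized counts in MS1349.1 and 160 in MS1210.1, and 6.30 to 106 with a median of 60.4 in AC(NST). Its groups did not overlap, although MS1218.2 came near the lower ASQC. The fitted difference of Cxcl1 was a log2 fold change of 1.92 ± 0.72, with an adjusted p of 0.495 by edgeR.

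Cxcl2, a close relative of Cxcl1, held 150.5 normalized counts in MS1349.1 but 26.7 in MS1210.1, within the AC(NST) range of 4.97 to 45.2 (median 17.7). Cxcl3 followed the same order, with 73.1 in MS1349.1, 8.44 in MS1210.1 and 0 to 24.1 (median 1.64) in AC(NST). For both, MS1349.1 alone stood above all other tumours, at 3.33 times the next tumour for Cxcl2 and 3.04 times for Cxcl3. Neither was called, with log2 fold changes of 2.10 ± 0.86 and 2.81 ± 1.35 and adjusted p-values of 0.525 and 0.600 by edgeR.

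Cxcl15, a neutrophil-attracting ligand best known from lung, was not tested. It held 378 normalized counts in MS1349.1, 14.2 in MS1155.3, 4.97 in MS1163.2 and 3.85 in MS1213.1, and 0 in the other 5 tumours. MS1210.1, the other ASQC, was thus at 0. The highest tumour was 26.7 times the next. At the depth of MS1210.1, 0 reads allow up to 3.

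Cxcr2, the receptor of these ligands on neutrophils, held 75.3 and 78.9 normalized counts in the ASQC and 1.29 to 29.9 with a median of 9.89 in AC(NST). The groups did not overlap, and both ASQC had nearly the same value, with the sarcoma near them at 64.2. The log2 fold change of Cxcr2 was 2.70 ± 0.89, and its adjusted p of 0.413 by edgeR did not pass. Cxcr1, the other receptor of the group, was at 0 in 8 tumours and at 3.52 in MS1210.1. All 5 tested members of the neutrophil-attracting group were higher in ASQC, with a median log2 fold change of 2.70 beside -0.08 over all genes tested, and 1 of the 5 passed the test.

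**Figure D2:**
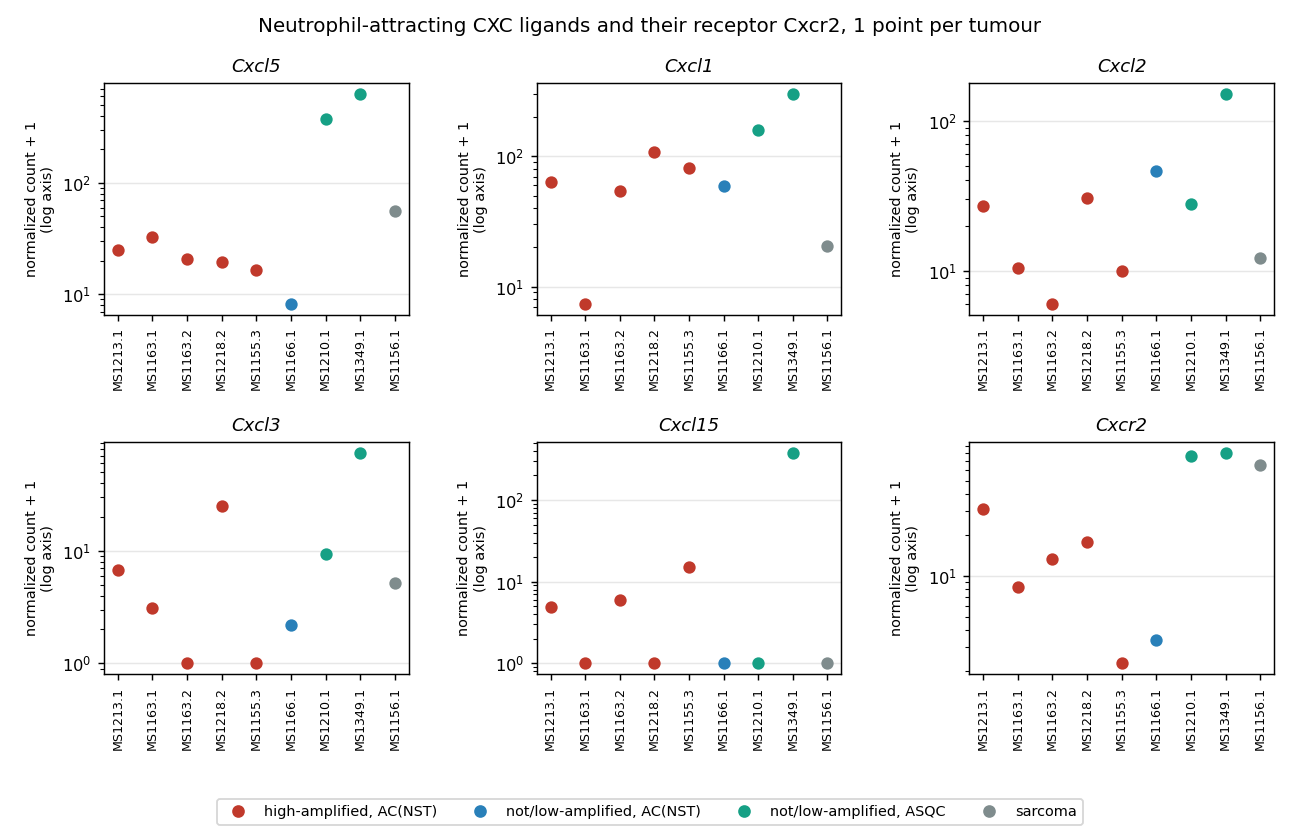
Normalized counts + 1 (log axis) of the 5 CXC ligands of the chromosome 5 cluster and of Cxcr2 in each tumour, 1 point per tumour, coloured by amplification status and histotype. Both ASQC (green) are above every AC(NST) for Cxcl5, Cxcl1 and Cxcr2, whereas for Cxcl2, Cxcl3 and Cxcl15 only MS1349.1 stands above the other tumours.

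The 7 listed neutrophil markers summed to 3217 and 3335 in the ASQC and to 170 to 1534 in AC(NST). The AC(NST) at 1534 was MS1213.1, where Cxcl5 held 24.1. Of the 7, 5 were higher in ASQC without overlap, beside 5.3% of all genes tested. Retnlg and Camp, among these 5, were scarce. Retnlg held 11.3 and 11.7 in ASQC and 11.2 in MS1163.2, and Camp 9.14 and 16.8 against 6.48 in MS1218.2. Of the 4 markers tested, 1 was called by edgeR, S100a9, beside 0.236% of all genes. Most of the sum was S100a8 and S100a9, which squamous epithelium also expresses. Ly6g, a defining neutrophil gene, was at most 1.46 normalized counts in all 9 tumours. Csf3r, the receptor for the neutrophil growth factor, held 228 and 321 in ASQC and 308 in MS1218.2, an AC(NST). Squamous markers, 6 genes including Krt1 and Lor, summed to 412 in MS1349.1, 125 in MS1210.1 and at most 24.5 elsewhere. The part of neutrophils or squamous epithelium in the Cxcl5 and Cxcr2 differences was not tested.

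The promoters of this cluster were read because its genes shared their highest tumour. RefSeq windows on GRCm38.p6 reach from 250 bases before to 50 after a start, and 40 of the 53 members matched an entry. Ccl2, Ccl4, Ccl5, Ccl7, Ccl11, Ccl24, Ccr7, Ccr10, Cxcl5, Cxcl16, Cxcl17 and Cxcr5 were among those that did not match. An NF-κB-type motif, GGGA and TTCC with any 2 bases between them, was searched on both strands. It was found in the windows of 6 members, Ccl1, Ccr3, Cxcl1, Cxcl2, Cxcl3 and Cxcl10, and in 1.47% of all 32851 windows. The 120 bases before the start of 3 genes of the cluster are shown from 5′ to 3′ on the + strand, for Cxcl1 at chr5:90891125-90891244, for Cxcl2 at chr5:90903779-90903898 and for Cxcl3 at chr5:90785981-90786100. Capitals mark the motif, whose matches on both strands overlap and together run 1 base beyond it. It begins 71 bases before the start in Cxcl1, 97 in Cxcl2 and 73 in Cxcl3.
Cxcl1: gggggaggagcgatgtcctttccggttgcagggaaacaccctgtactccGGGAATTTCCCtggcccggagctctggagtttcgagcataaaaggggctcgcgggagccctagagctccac
Cxcl2: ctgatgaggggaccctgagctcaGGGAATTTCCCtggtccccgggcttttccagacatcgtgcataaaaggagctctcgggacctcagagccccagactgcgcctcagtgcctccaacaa
Cxcl3: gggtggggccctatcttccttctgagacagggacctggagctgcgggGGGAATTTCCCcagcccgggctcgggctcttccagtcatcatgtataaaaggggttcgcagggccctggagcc
The 3 matches have the same letters. The window of Cxcl15 holds no match. Whether any factor bound these windows was not measured.

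Apart from the neutrophil group, Cxcl14 was the member with the lowest adjusted p in this comparison. It held 2185 normalized counts in MS1349.1 and 3875 in MS1210.1, against 291 to 1820 with a median of 527 in AC(NST). The groups did not overlap, but MS1218.2, the highest AC(NST), was close to MS1349.1. The log2 fold change of Cxcl14 was 2.08 ± 0.58 with an adjusted p of 0.289 by edgeR. In all, 6 of the 39 tested members were without overlap and higher in ASQC (Ccl4, Ccl20, Cxcl1, Cxcl5, Cxcl14 and Cxcr2) beside 5.3% of all genes tested. In the other direction it was 0 of the 39, beside 4.98%. At an unadjusted p under 0.05, 7 of the 39 members and 8.72% of all genes passed. Without MS1218.2, 10 members were without overlap, all higher in ASQC, beside 18.8% of all genes in either direction.

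Between high-amplified and not/low-amplified tumours, 0 of the 39 members were called by edgeR, beside 0.921% of all genes tested. At an unadjusted p under 0.05, 9 of the 39 passed, beside 22.8% of all genes. The median log2 fold change of the members was 0.04. DESeq2 called 4 of the 42 members it gave an adjusted p, beside 10.8% of all genes, with Ccl8 higher in high-amplified tumours and Cxcl2, Cxcl5 and Cxcl10 higher in not/low-amplified tumours.

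The members whose groups did not overlap were Cxcl10 and Ccl4, both higher in not/low-amplified tumours, 2 of 39 beside 8.04% of all genes in that direction. Cxcl10, an interferon-induced ligand that draws T cells through Cxcr3, held 36.6, 14.7, 29.8, 35.2 and 54.1 normalized counts in MS1213.1, MS1163.1, MS1163.2, MS1218.2 and MS1155.3. In the not/low-amplified group the AC(NST) MS1166.1 reached 151, and the ASQC reached 117 (MS1210.1) and 96.4 (MS1349.1). All 3 of them were above all 5 high-amplified tumours. The log2 fold change of Cxcl10 was -1.81 ± 0.48, with an adjusted p of 0.0839 by edgeR and 0.00263 by DESeq2.

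The other genes of the Cxcl10 group did not share this order. Cxcl9, induced by interferon like Cxcl10, held 74.7 ± 34.1 normalized counts in the high-amplified (SD, n = 5) and 44.6 ± 17.8 in the not/low-amplified tumours (SD, n = 3), at a log2 fold change of 0.75 ± 0.57. Cxcr3, their receptor on activated T cells and NK cells, was highest in MS1218.2 with 77.8, next in MS1213.1 with 26.0 and at 0 in MS1166.1, the tumour with the most Cxcl10. An exon of Art3 on the other strand overlaps Cxcl10, and since counting by strand is not stated, reads of both genes cannot be told apart.

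The Cxcl10 window holds the same type of motif as the CXC cluster and an interferon-response type motif, GAAA repeated after any 2 bases and searched on both strands. This was found in 3 members, Ccl19, Cxcl10 and Cxcl14, and in 3.44% of all windows. The stretch from 220 to 101 bases before the start is shown on the - strand at chr5:92348990-92349109 (GRCm38.p6), with the interferon-response type first and the NF-κB type second in capitals.
Cxcl10: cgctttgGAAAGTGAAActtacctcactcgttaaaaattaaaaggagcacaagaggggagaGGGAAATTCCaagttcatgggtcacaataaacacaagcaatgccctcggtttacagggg
The first motif begins 213 bases and the second 159 bases before the start.

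Ccl4, which draws monocytes and T cells, was scarce in all tumours. It held 0 to 13.0 normalized counts in the high-amplified tumours, all below the 20.2 to 26.7 of the other group. Its log2 fold change was -1.80 ± 0.85, with an adjusted p of 0.241 by edgeR. Cxcl5 had a larger fold change in this comparison, -3.94 ± 0.93 with an adjusted p of 0.0727, but the groups overlapped, since MS1166.1 with 7.14 lay below all 5 high-amplified tumours. Without MS1166.1, both not/low-amplified tumours left were ASQC, so the fit compared ASQC with the high-amplified AC(NST). Cxcl5 was then the 1 member called, beside 0.603% of all genes. The histotype comparison without MS1166.1 is the same fit, so this call is not a separate result for amplification.

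Ccl8 showed the opposite order. Normalized counts of Ccl8 ran from 165 to 1565 in the high-amplified tumours (median 501). The not/low-amplified tumours held 38.1 (MS1166.1), 87.9 (MS1210.1) and 304 (MS1349.1). The groups overlapped through MS1155.3 and MS1349.1. The log2 fold change of Ccl8 was 2.42 ± 0.90 with an adjusted p of 0.154 by edgeR. Macrophage markers, 8 genes, summed to 6462 to 50723 in the high-amplified and 3641 to 15146 in the not/low-amplified tumours, and their part in the Ccl8 difference was not tested.

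Cxcl16, a membrane-anchored ligand of Cxcr6, held 1892, 1447 and 1904 normalized counts in the not/low-amplified tumours and 305 to 1651 in the high-amplified tumours, with MS1218.2 the highest of those and inside the not/low-amplified range. Without MS1218.2, edgeR called Cxcl16 and Cxcl17 higher in not/low-amplified tumours, beside 9.08% of all genes. In the comparison with all tumours, the log2 fold change of Cxcl16 was -1.25 ± 0.50 with an adjusted p of 0.176. Epithelial markers did not overlap between the groups as a sum, at 33366 to 51115 in the high-amplified and 82607 to 136254 in the not/low-amplified tumours, and their part in the Cxcl16 and Cxcl10 values was not tested.

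**Figure D3:**
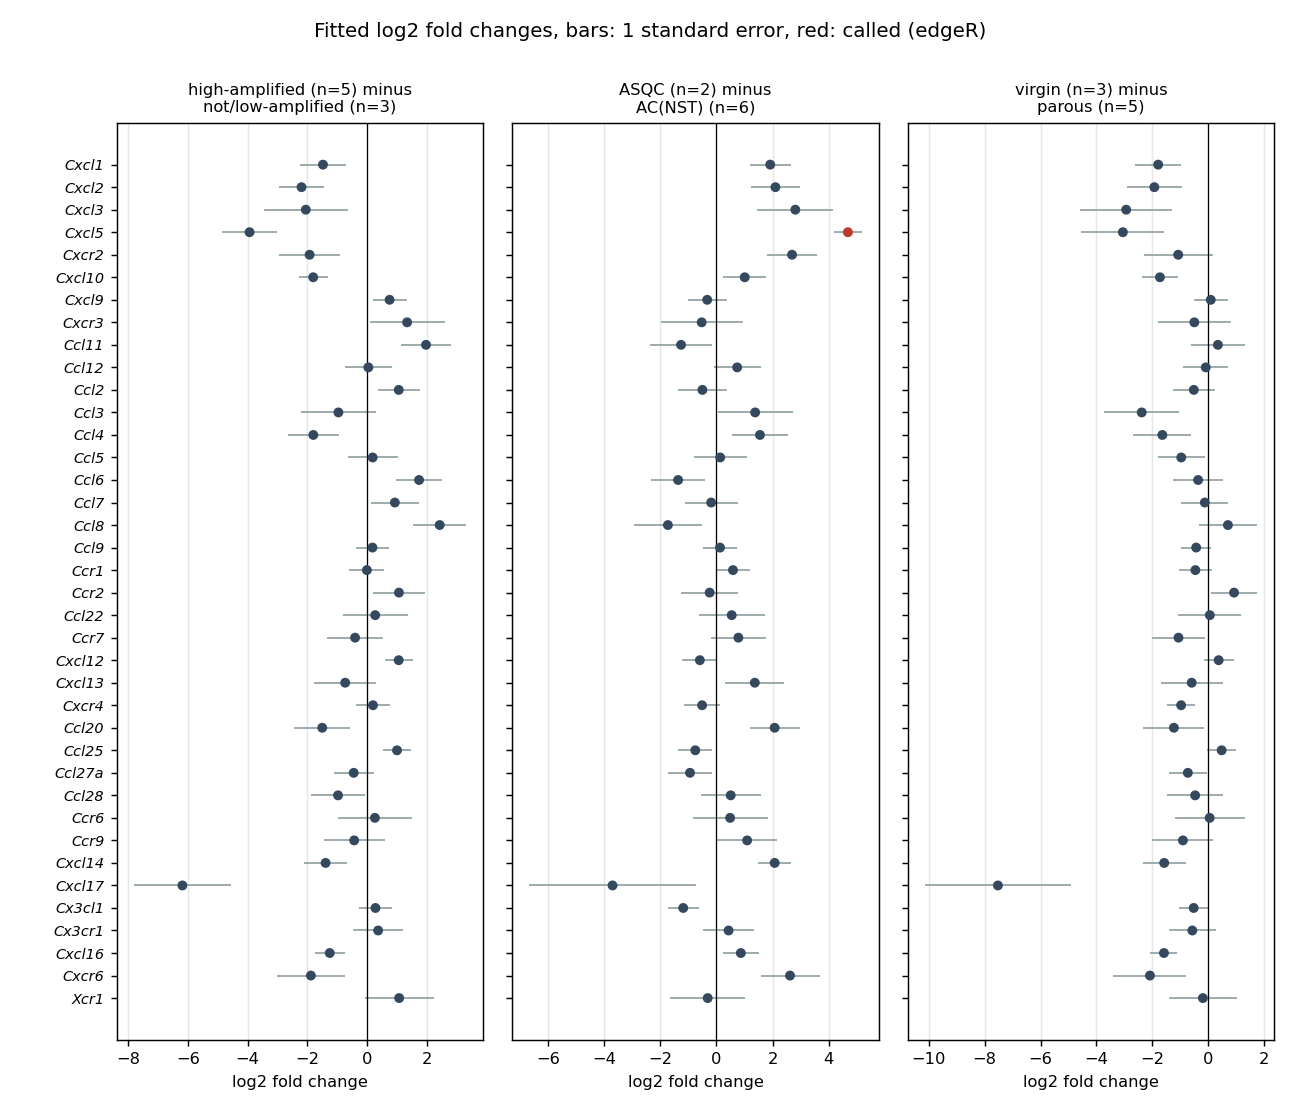
Fitted log2 fold changes (x axis) of 38 tested members with bars of 1 standard error, for high-amplified minus not/low-amplified, ASQC minus AC(NST) and virgin minus parous tumours. The red point, Cxcl5 at 4.68 in the ASQC comparison, is the member called by edgeR; Cxcl17 lies far to the left with wide bars in all 3 comparisons.

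Between virgin and parous epithelial tumours, 0 of the 39 members and 0% of all genes tested were called by edgeR. At an unadjusted p under 0.05, 3 members passed, beside 14.2% of all genes. DESeq2 called Cxcl16, 1 of the 41 members it gave an adjusted p, beside 3.57% of all genes. Cxcl16 held 305 to 737 normalized counts in the 3 virgin tumours and 489 to 1904 with a median of 1651 in the 5 parous tumours, and the groups overlapped because MS1155.3 was low. Its log2 fold change was -1.59 ± 0.48 with an adjusted p of 0.302 by edgeR and 0.0466 by DESeq2. These p-values count MS1163.1 and MS1163.2, which carry the same mouse number, as separate virgin tumours.

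Cxcl17, a mucosal ligand of epithelium, was the 1 member of 39 whose virgin and parous values did not overlap, beside 5.35% of all genes in that direction. It held 745 normalized counts in MS1166.1, 11.7 in MS1349.1, 11.1 in MS1218.2, 7.03 in MS1210.1 and 2.58 in MS1155.3. In the virgin tumours it was at 1.93 in MS1213.1 and at 0 in MS1163.1 and MS1163.2. The separation thus rested on a few reads outside MS1166.1, which alone was high at 63.7 times the next tumour. The adjusted p of Cxcl17 was 0.311 by edgeR.

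Of the other genes of the pathway, 39 were listed and 36 tested, covering atypical receptors, signalling from receptors, inducers and cleaving enzymes. In the amplification comparison 1 of the 36 was called, beside 0.921% of all genes tested, and 0 were called by histotype or parity. The called gene was Elmo1, which works with Dock2 to activate Rac downstream of chemokine receptors and in the uptake of dying cells. It held 1948 to 3917 normalized counts in the high-amplified tumours and 362 to 802 in the not/low-amplified tumours, without overlap, at a log2 fold change of 2.25 ± 0.39 and an adjusted p of 0.0355 by edgeR. The call was lost with parity as a covariate, at an adjusted p of 0.185, and among parous tumours alone, at 0.329, settings in which 0 genes were called, and it held in 1 of the 8 fits that left out a tumour, the one without MS1218.2.

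Single tumours stood apart in many members. MS1218.2 had the highest value among the epithelial tumours for 19 of the 39 tested members, beside 20% of all genes, and for 8 of the 12 tested receptors. These included 8 CC ligands, Ccl2, Ccl3, Ccl5, Ccl6, Ccl7, Ccl8, Ccl9 and Ccl11. Ccl6 held 3911 normalized counts in MS1218.2 and 295 to 856 in the other epithelial tumours, a single tumour standing apart. Ccl24, an eotaxin that draws eosinophils through Ccr3, held 125 in MS1218.2, 19.5 in the sarcoma and 0 to 10.6 elsewhere. Its receptor Ccr3 was at 8.33 in MS1218.2 and highest, at 39.5, in MS1349.1.

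In both CC ligand clusters of chromosome 11, 4 of 5 tested genes were highest in MS1218.2. One cluster, chr11:82035571-82305690 (GRCm38), holds Ccl2, Ccl7, Ccl11, Ccl12, Ccl8 and Ccl1, and the other, chr11:83525778-83664683, holds Ccl5, Ccl9, Ccl6, Ccl3 and Ccl4. The exceptions were Ccl12 and Ccl4, both highest in MS1210.1. All 8 macrophage markers were also highest in MS1218.2, as were 5 of the 6 leukocyte markers and 5 of the 6 fibroblast markers. Their part in these values was not tested.

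MS1163.1 had the lowest value for 11 of the 39 tested members, beside 7.16% of all genes, with Cxcl1, Cxcl9, Cxcl10, Cxcl13 and Cxcl16 among them. Its 6 leukocyte markers summed to 10845, but without Lcp1 to 2209, below every other epithelial tumour except MS1166.1, and its T cell markers summed to 51.4. The T cell sum of MS1163.2 was lower, at 46.0, beside 96.9 normalized counts of Cxcl9 and 29.8 of Cxcl10. The part of these cell markers in the MS1163.1 values was not tested. MS1166.1 had the lowest value for 14 of the 39 tested members, beside 20.8% of all genes. Ccr2, the receptor that brings monocytes out of the blood, held 10.7 normalized counts in MS1166.1 and 374 to 1176 in the other epithelial tumours. Cx3cr1 held 47.6 against 421 to 1943. For both receptors MS1166.1 was far below every other epithelial tumour, with the lowest leukocyte marker sum of the epithelial tumours beside it, with or without Lcp1.

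These receptors were also set against the summed leukocyte markers of the same tumour, a scale chosen after the values were seen. Per 1000 normalized counts of the 6 markers, Ccr2 stood at 3.85 in MS1166.1 and 21.2 to 109 in the other epithelial tumours, and without Lcp1 at 8.95 and 38.9 to 338. Cx3cr1 stood at 17.1 against 39.1 to 117, and without Lcp1 at 39.8 against 121 to 215. Ccr1, a receptor of Ccl6 and Ccl9 on macrophages and neutrophils, was not low on either scale, at 48.7 against 17.8 to 59.0 and, without Lcp1, at 113 against 48.3 to 112. The part of leukocyte content in the receptor values was not tested.

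Cxcr4 went the other way in MS1166.1. It held 1016 normalized counts there, against 302 to 1836 in the other epithelial tumours, so that the tumour with the lowest leukocyte marker sum had the second highest Cxcr4. Per 1000 normalized counts of leukocyte markers this was 365, against 29.1 to 82.9, and without Lcp1 it was 849, against 46.6 to 324. MS1166.1 also had the highest sum of epithelial markers, 136254. Which cells carried Cxcr4 cannot be told from these bulk libraries. Cxcl12, its ligand from fibroblasts, was lowest in MS1166.1 among the epithelial tumours at 225 and highest in MS1218.2 at 1245.

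**Figure D4:**
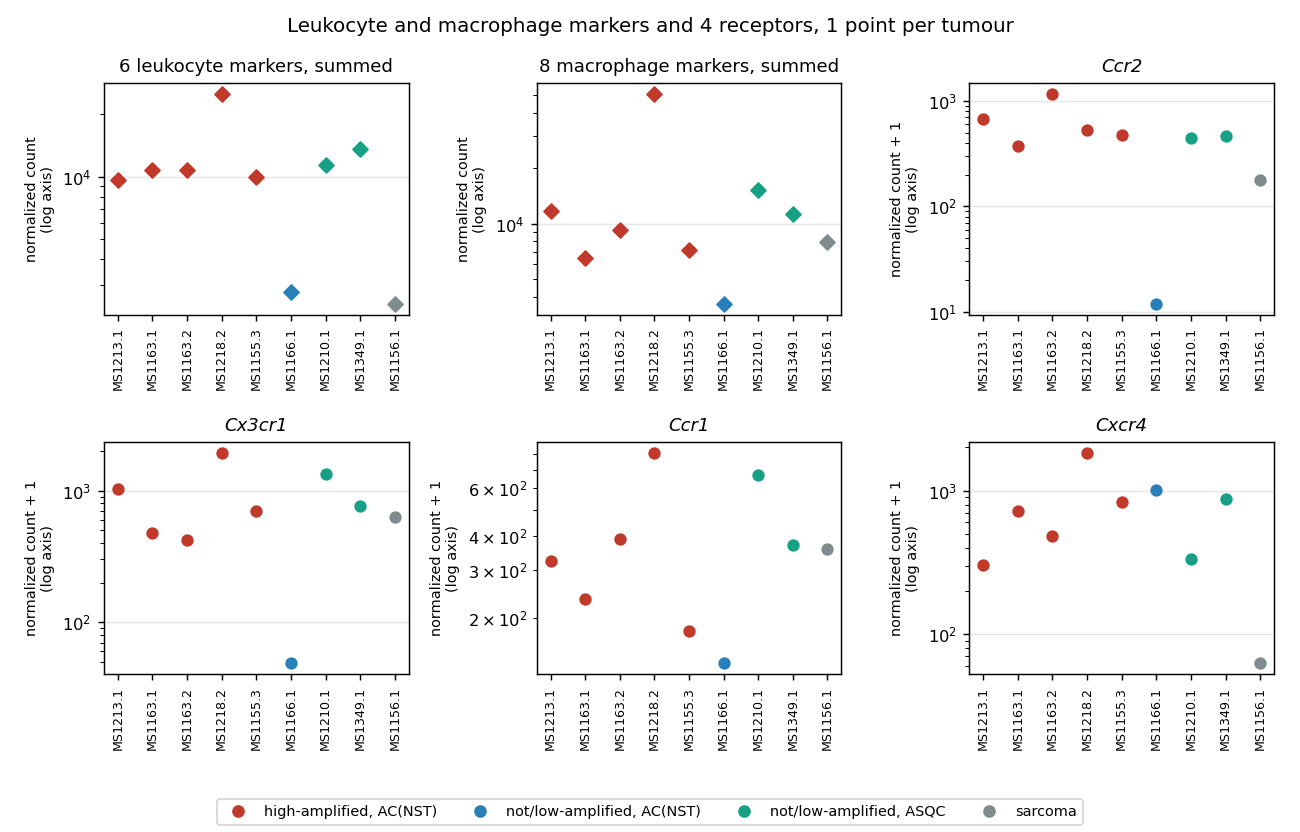
Summed normalized counts of 6 leukocyte and 8 macrophage markers, and normalized counts + 1 of the receptors Ccr2, Cx3cr1, Ccr1 and Cxcr4 (log axes), 1 point per tumour coloured by amplification status and histotype. MS1166.1 (blue) is the lowest epithelial tumour for both marker sums, Ccr2 (10.7), Cx3cr1 (47.6) and Ccr1 (136), but not for Cxcr4 (1016).

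The ASQC MS1210.1 stood out in Cxcr6, the Cxcl16 receptor on T cells and NK T cells. Cxcr6 held 184 normalized counts in MS1210.1, 20.5 in MS1349.1, 41.7 in MS1218.2 and 1.24 to 27.9 elsewhere among the epithelial tumours. The T cell markers of MS1210.1 summed to 208, within the range of the other tumours. With 1 ASQC high and 1 inside the AC(NST) range, the log2 fold change of Cxcr6 was 2.62 ± 1.05 and the adjusted p 0.513 by edgeR.

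The sarcoma was 1 library, so its values have no replicate check. Of the 46 members with at least 10 reads in some tumour, it lay above all 8 epithelial tumours for 4, beside 23.2% of all genes detected, and below all 8 for 7, beside 19%. The higher genes were Ccl11, Ccl25, Ccl28 and Cxcl12. Ccl11, an eotaxin made by fibroblasts, held 735 normalized counts in the sarcoma against 5.95 to 231 in the epithelial tumours. Cxcl12 held 2169 against 225 to 1245. Both ligands were also highest in MS1218.2 among the epithelial tumours, and the 6 fibroblast markers summed to 341416 in the sarcoma and 257527 in MS1218.2 against 22351 to 81175 in the others. Most of each sum was Col1a1 and Col1a2. Although 5 of the 6 markers were highest in MS1218.2 among the epithelial tumours, Pdgfra was not. It held 1792 there, 2175 in MS1163.2 and 2075 in MS1210.1. The part of fibroblasts in the Ccl11 and Cxcl12 values was not tested.

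Ccl28, a mucosal ligand of Ccr10, held 128 normalized counts in the sarcoma against 0.926 to 46.4, and it is best known from epithelium, whose markers summed to 458 there. Ccl25, the ligand of Ccr9, held 140 against 31.6 to 116. It overlaps an exon of Elavl1 on the other strand. Their receptors Ccr10 and Ccr9 were at 2.79 and 1.39 in the sarcoma.

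The 7 lower genes were Ccl8, Ccl20, Cx3cl1, Cxcl9, Cxcl14, Cxcl16 and Cxcr4. Cx3cl1 held 186 normalized counts in the sarcoma against 486 to 2329, and Cxcl16 held 146 against 305 to 1904. Cxcr4 held 61.4 against 302 to 1836, in the tumour with the highest level of its ligand Cxcl12. Ccl8 held 26.5 against 38.1 to 1565. Ccl20, a ligand of Ccr6, had 0 reads in the sarcoma and 1 in MS1213.1, a difference not detectable at this depth. The 6 leukocyte markers of the sarcoma summed to 2430, below all epithelial tumours. Without Lcp1 they summed to 1740, above the 1197 of MS1166.1.

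**Figure D5:**
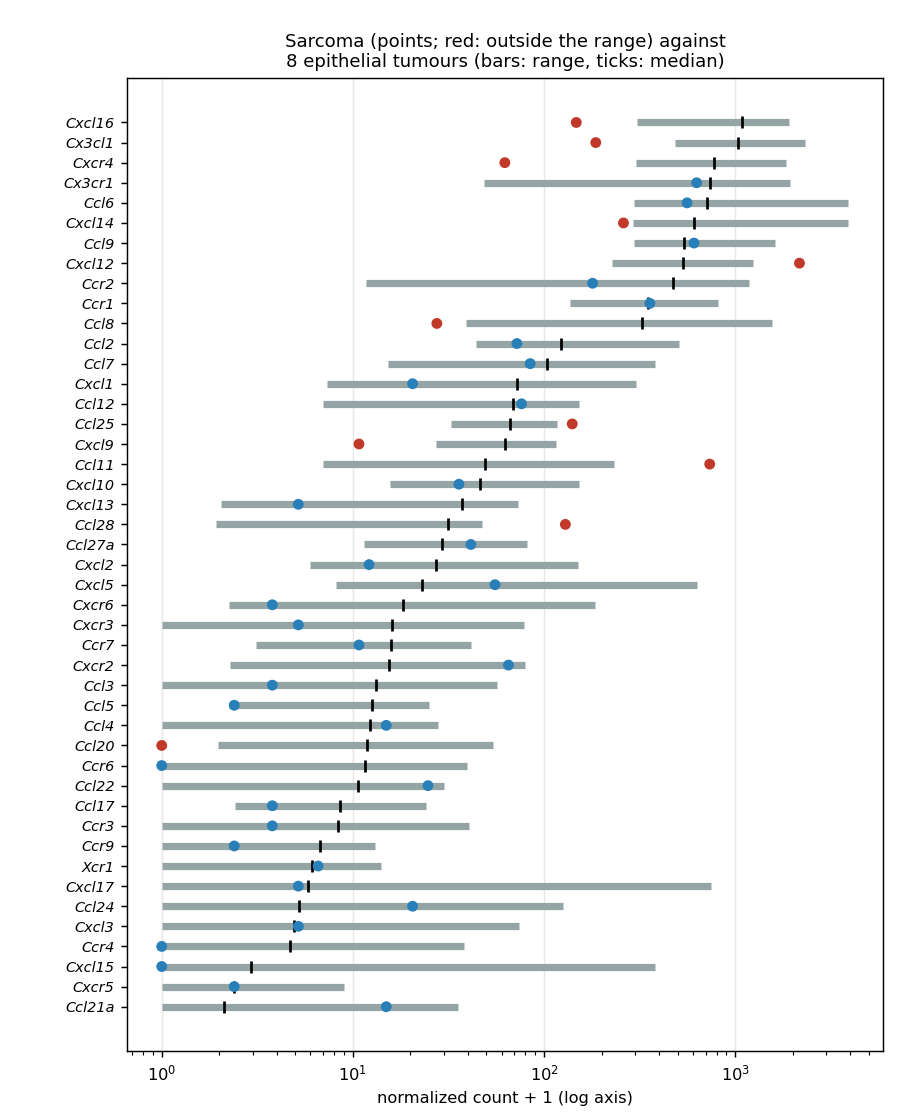
Normalized counts + 1 (log x axis) of 45 detected members, with the sarcoma as points and the 8 epithelial tumours as bars from lowest to highest with a tick at the median; genes are ordered by that median. Red points lie outside the epithelial range, 4 to the right (Cxcl12, Ccl11, Ccl25, Ccl28) and 7 to the left.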

How the data were processed

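RNA of 9 snap-frozen tumours was depleted of ribosomal RNA and made into strand-specific paired-end libraries. According to the study's methods, reads were aligned to mouse build 38 with STAR, keeping unique matches with at most 3 mismatches, and counted per gene. The submitters' processing notes name FastQC, HTSeq, Cufflinks and DESeq2. For all 9 tumours the authors deposited raw counts, whole reads per gene. For the 8 epithelial tumours they also deposited a scaled signal, the same counts over a DESeq2 size factor, and the sarcoma was scaled to the same reference here. Per-strand counting is not given in the sources used here. Ccl19, Ccl21a and Ccl27a have near-identical copies and are uncertain.

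Counts were tested with edgeR 4.0.16 (TMM, glmQLFit, glmQLFTest) under R 4.3.3 on the 8 epithelial tumours without covariates. Standard errors are the log2 fold change divided by the root of its F statistic. The study used DESeq2, run here in version 1.42.0 as an alternative beside limma 3.58.1, other scalings and filters, and leaving out each tumour. The scripts were tested on simulated data. Positions and exon lengths came from GENCODE M21. Members, lists and tests were chosen with earlier results of these data known. Genes given by tumour were those called, the 3 without overlap that changed most in each direction, the 8 highest per kilobase, members with at least 50 normalized counts and 8 times the median of the other tumours in 1 tumour, and the main partners of these. A few others, such as Cxcr6 and Ccl20, were described after their values were seen. Depth limits low members: 3 reads are the most that 0 reads allow, for counting error only. Of the members counted, 1 is not reported here by name, in text or figures.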

Additional observations from a re-analysis of the deposited data

Results flagged for a closer look

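In groups of 5 or 6 tumours, 114 sets of member values were examined for 1 tumour far from the rest. Dixon's test at 95% on log2 values marked 9 of them, where chance gives about 1 in 20. The groups share tumours, so the sets are not independent. Cxcl1 in MS1163.1 and Ccr2 in MS1166.1 are each counted in more than 1 group. Among the high-amplified and among the AC(NST) tumours, Cxcl1 in MS1163.1 was far below the others at 6.30 normalized counts (others 53.4 to 106). Ccr2 in MS1166.1 was far below the other AC(NST) and the other parous epithelial tumours at 10.7. The parous groups here leave out the sarcoma. Among the parous epithelial tumours, Cx3cr1 in MS1166.1 was low at 47.6 (others 701 to 1943) and Cxcl16 in MS1155.3 at 489 (others 1447 to 1904). Ccl28 in MS1218.2 was low among the parous epithelial tumours at 0.926 (others 30.0 to 46.4), and Ccl6 in the same tumour high at 3911 (others 295 to 583). Cxcl17 in MS1166.1 was high among the parous epithelial tumours at 745 (others 2.58 to 11.7).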

How the results depend on the processing

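In the amplification comparison, edgeR called 0 members, DESeq2 called 4, and leaving out 1 tumour gave 0 to 2 calls (2 without MS1218.2, 1 without MS1166.1). In the histotype comparison 1 member was called, and leaving out 1 tumour gave 0 to 1 (0 without MS1349.1); with parous tumours alone it was 0. In the parity comparison DESeq2 called 1 member and leaving out 1 tumour gave 0. Cxcl5 in ASQC kept its direction in all 17 alternatives, with adjusted p-values from 1.12e-14 to 0.246, and passed in 15. Cxcl10 in the amplification comparison passed in 1 of 20, DESeq2, over a range of 0.00263 to 0.476. Of the 6 fold changes refitted under the alternatives (Ccl4 and Cxcl10 by amplification, Cxcl5, Cxcl14 and Cxcr2 by histotype, Cxcl17 by parity), 0 reversed. All 6 were picked as members whose groups did not overlap in these same tumours, which left little room for a reversal. The kept directions, that of Cxcl5 included, are therefore no support. Without MS1218.2, an alternative chosen after seeing the data, members without overlap went from 2 to 5 by amplification (30.5% of all genes), 6 to 10 by histotype (18.8%) and 1 to 5 by parity (12.6%). Without MS1166.1 they went to 7 (22.5%), 7 (22.5%) and 2 (11.9%). Without that tumour, the comparisons by amplification and by histotype split the tumours in the same way. Their calls and counts there are the same result. Scaled by library total, 8 members in place of 7 lay below the epithelial range in the sarcoma. Summing MS1163.1 and MS1163.2 left the calls among members at 0, 1 (Cxcl5) and 0, while calls among all genes by amplification went from 129 to 31. No paired analysis was possible because the labels give no replicate numbers and the mouse shared by MS1163.1 and MS1163.2 lies within 1 group of every comparison.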
